A study of Mus musculus with 11 samples.

Results

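This account covers 10 genes that handle intracellular fatty acids and lipid droplets in mouse microglia: the fatty acid binding proteins Fabp3, Fabp4 and Fabp5, the droplet coat proteins Plin2 and Plin3, the triglyceride-forming enzymes Dgat1 and Dgat2, and the lipases Pnpla2, Mgll and Lipa. The list of genes was set with earlier results of these data known, and all 10 were found among the 16894 genes of the deposited expression table. RNA was sequenced in 11 libraries of microglia, the resident macrophages of the brain. The transplanted group holds 4 libraries of microglia sorted by fluorescence 3 months after transplantation into brains whose own microglia had been depleted. The cultured group holds 3 libraries of primary microglia kept in cell culture. The resident group holds 4 libraries of sorted resident microglia. All 11 libraries carry the genotype Cx3cr1-GFP, a green fluorescent reporter in the fractalkine receptor gene that microglia and related myeloid cells express. The depletion protocol, chow with PLX3397 at 600 mg/kg in 3 cycles, is attached by the labels to every library, so whether the animals that gave resident cells had received this Csf1r inhibitor is not known. The origin of the transplanted cells and whether replicates came from separate animals or cultures are not known either. The p-values below therefore describe the spread among these libraries, which may be technical.

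Fatty acids that enter a macrophage are carried through the cytosol by small fatty acid binding proteins, activated to acyl-CoA and either burned in mitochondria or esterified. The final step of triglyceride synthesis is catalysed by the unrelated acyltransferases Dgat1 and Dgat2, and the product is stored in lipid droplets whose surface is covered by perilipins. Stored fat is released in the cytosol by a chain of lipases that starts with Pnpla2 (adipose triglyceride lipase) and ends with Mgll (monoacylglycerol lipase), while lysosomal acid lipase, the product of Lipa, hydrolyses lipids that arrive by endocytosis or by autophagy. Droplet-laden microglia are known from aged and injured brain and from cells that have taken up myelin.

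Total expected counts per library were 18692721 to 19761208 in the transplanted group, 26705034 to 28219696 in the cultured group and 19055655 to 19965631 in the resident group. The summed level of 8 microglia markers was 41158 to 50551 CPM (counts scaled to a common library total with TMM factors) in transplanted libraries, 3413 to 5831 CPM in cultured libraries and 47677 to 52954 CPM in resident libraries, all 8 markers were lower in cultured than in resident cells, and 2 of the 8 were lower in transplanted than in resident cells. The 6 markers of border-associated macrophages summed to 15.1 to 25.3 CPM in transplanted, 2864 to 3148 CPM in cultured and 52.2 to 109 CPM in resident libraries. Resident replicate 1 stood apart with a sum of 7934 CPM over 7 immediate early genes, against 219 to 315 CPM in the other resident libraries. Resident replicate 4 had 0.137 CPM over 3 Y-linked genes, against 160 to 183 CPM in the other resident libraries. The transplanted libraries were split for these genes too, at 71.3, 51.4, 192 and 189 CPM in replicates 1 to 4. For the members called between transplanted and resident cells and for the pathway counts, values without resident replicate 1 and without resident replicate 4 are given as well.

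Transplanted cells differed from resident cells in 5 of the 10 genes. Plin3 was 3.63-fold higher, Dgat2 3.73-fold higher and Fabp5 3.17-fold higher in transplanted cells, Lipa was 1.21-fold higher, and Mgll was 1.97-fold lower. Plin2, Dgat1 and Pnpla2 did not pass the test, and Fabp3 and Fabp4 had too few counts to enter it. A gene is called here when edgeR's quasi-likelihood test gives an adjusted p under 0.05, with Benjamini-Hochberg adjustment over all genes tested. Of 11929 genes tested, 13% were called, 7.17% higher and 5.86% lower, against 4 higher and 1 lower of the 8 members tested. These 8 members had a median log2 fold change of 0.30, against 0.02 for all genes tested. The groups' ranges did not overlap for the 5 genes called (4 above and 1 below) and overlapped for the other 5, while 19.7% of all genes tested had ranges that did not overlap (10.2% above and 9.49% below). In bulk RNA, fewer cells that express a gene and less RNA per cell cannot be told apart.

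**Figure D1:**
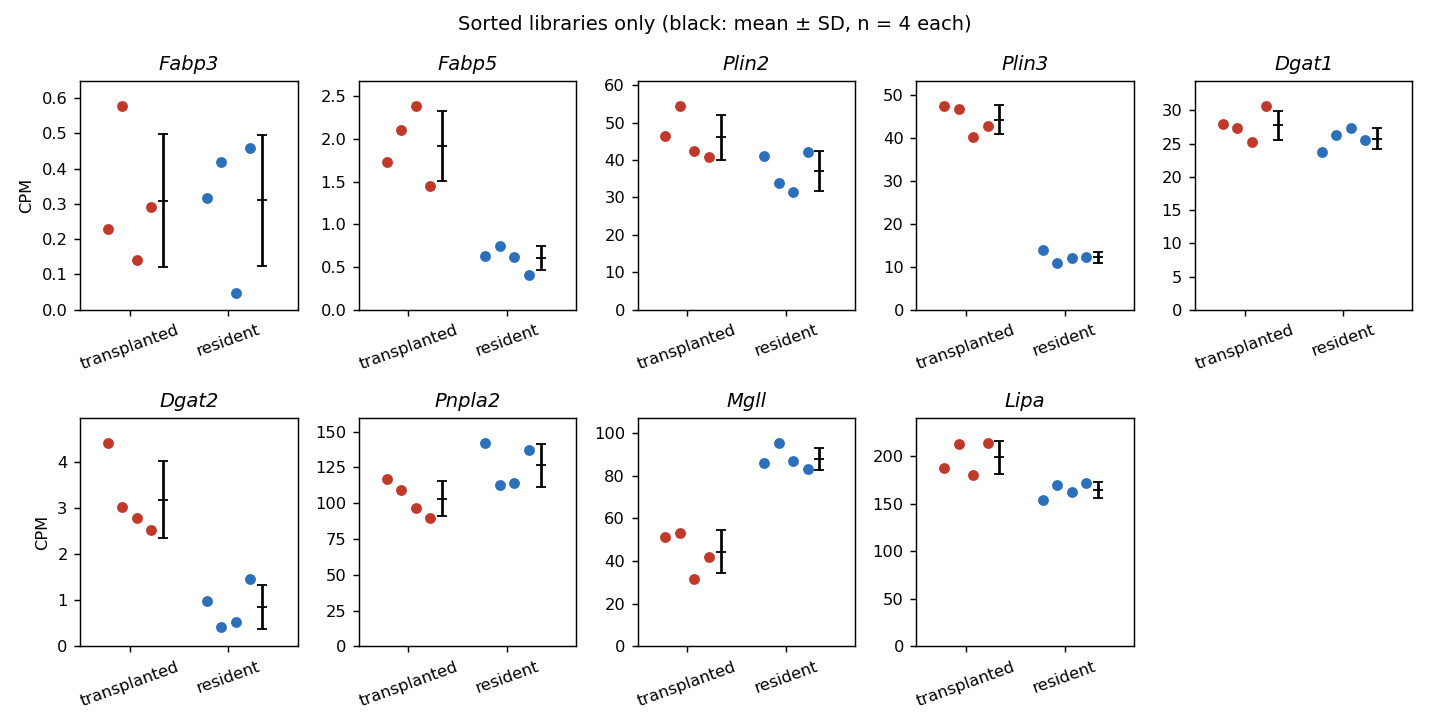
Level of 9 of the genes in CPM (linear axes that start at 0), for the 4 transplanted and the 4 resident libraries, with 1 point per library and the mean ± SD. The points of Plin3, Dgat2, Fabp5 and Lipa lie higher in all 4 transplanted libraries than in any resident library, and those of Mgll lie lower. Fabp4, at 0 in all 8 libraries, is left out.

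Among the fatty acid binding proteins, Fabp5, an epidermal and macrophage form that is widely expressed, lies on chromosome 3 from 10012585 to 10016610 (plus strand, GRCm38.p6). It measured 1.73, 2.11, 2.38 and 1.45 CPM in transplanted replicates 1 to 4 and 0.634, 0.747, 0.618 and 0.412 CPM in resident replicates 1 to 4. The lowest transplanted library was above the highest resident library, and both groups were near the limit of detection, with 30 to 51 counts per transplanted library and 9 to 16 per resident library. The log2 fold change was 1.67 ± 0.27 (SE; edgeR adjusted p = 0.00282), and it was 1.68 without resident replicate 1 and 1.51 without resident replicate 4. Fabp3, the heart and muscle form (chromosome 4, 130308738 to 130315463, plus strand), measured 0.228, 0.576, 0.140 and 0.290 CPM in transplanted replicates and 0.317, 0.420, 0.0475 and 0.457 CPM in resident replicates. These ranges overlapped and rested on at most 12 counts in a library. Fabp3 shares its 3' end with Zcchc17 on the opposite strand. Whether counting used strand is not given, so counts of the pair cannot be told apart there. Fabp3 counts were not whole in 7 of 11 libraries. The pseudogene copies Fabp3-ps1 (chromosome 10) and Fabp5l2 (chromosome 18) are absent from the expression table, and their part in the Fabp3 and Fabp5 counts was not tested. Fabp4, the adipocyte and macrophage form (chromosome 3, 10204342 to 10208616, minus strand), had 0 counts in all 4 transplanted and all 4 resident libraries. A floor of 3 counts in a library was 0.137 to 0.145 CPM in transplanted and 0.136 to 0.143 CPM in resident libraries. Over the 4 libraries of a group together, 3 counts were 0.0353 CPM in transplanted and 0.0347 CPM in resident cells. Fabp4 below these levels could go unread, with counting error alone considered.

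The coat proteins behaved differently from each other. Plin3 (chromosome 17, 56278962 to 56290511, minus strand), a perilipin found both in the cytosol and on small or newly formed droplets, measured 47.4, 46.8, 40.2 and 42.8 CPM in transplanted replicates and 13.9, 10.8, 12 and 12.2 CPM in resident replicates. Every transplanted library was far above every resident library, with means of 44.3 ± 3.40 CPM and 12.2 ± 1.30 CPM (SD, n = 4 each). The log2 fold change of Plin3 was 1.86 ± 0.10 (SE; edgeR adjusted p = 3.92e-06), and Plin3 had the 7th smallest p-value of all genes tested. It stayed between 1.79 and 1.92 when each library was left out in turn. Plin2 (chromosome 4, 86626910 to 86670217, minus strand), the perilipin that sits on droplets and is degraded when free of them, measured 46.5, 54.3, 42.4 and 40.9 CPM in transplanted replicates and 41.0, 33.9, 31.4 and 42.1 CPM in resident replicates. These ranges overlapped, and the log2 fold change of 0.32 ± 0.12 (SE) did not pass the test (edgeR adjusted p = 0.114).

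The sequence around a RefSeq transcription start is shown for Plin2 and Plin3, the coat proteins that differed in response, and for Mgll, the gene that was lower in both transplanted and cultured cells. Each line holds 250 bases before and 50 bases after a start on GRCm38.p6, 5' to 3' on the gene's own strand, at chr4:86670010-86670309 (minus strand) for Plin2, chr17:56290462-56290761 (minus strand) for Plin3 and chr6:88724162-88724461 (plus strand) for Mgll, which has a second start downstream. Capitals mark the E-box CACGTG, the CCAAT box and the GC box GGGCGG, searched on both strands. 
Plin2: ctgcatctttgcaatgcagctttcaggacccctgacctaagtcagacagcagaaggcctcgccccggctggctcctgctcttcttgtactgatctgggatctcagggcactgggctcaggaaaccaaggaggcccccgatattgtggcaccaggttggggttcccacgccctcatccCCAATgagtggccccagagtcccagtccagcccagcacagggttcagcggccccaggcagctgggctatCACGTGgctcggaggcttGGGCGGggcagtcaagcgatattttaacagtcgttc
Plin3: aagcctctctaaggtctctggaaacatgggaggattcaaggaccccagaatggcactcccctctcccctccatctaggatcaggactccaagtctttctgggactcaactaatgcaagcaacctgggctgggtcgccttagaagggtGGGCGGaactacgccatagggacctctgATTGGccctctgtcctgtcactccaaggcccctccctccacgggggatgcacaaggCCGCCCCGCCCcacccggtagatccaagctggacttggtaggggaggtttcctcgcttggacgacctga
Mgll: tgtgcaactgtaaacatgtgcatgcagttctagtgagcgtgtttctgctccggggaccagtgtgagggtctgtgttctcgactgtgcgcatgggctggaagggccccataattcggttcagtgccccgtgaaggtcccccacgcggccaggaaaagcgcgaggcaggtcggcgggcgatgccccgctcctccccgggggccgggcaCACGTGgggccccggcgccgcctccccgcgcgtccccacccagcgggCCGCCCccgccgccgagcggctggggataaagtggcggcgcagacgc
The start used for Plin2 lies inside the gene's span, downstream of its 5' end at 86670217. Relative to that start, the Plin2 window holds CACGTG from base -4 to base 2, across the start itself, a CCAAT box from -73 to -69 and a GC box from 15 to 20. The Plin3 window holds no CACGTG. It holds a CCAAT box on the opposite strand from -75 to -71, a GC box from -103 to -98 and a pair of overlapping GC boxes on the opposite strand from -19 to -14 and from -14 to -9. The first Mgll window holds CACGTG from -44 to -39 and a GC box on the opposite strand from 4 to 9. Of 32851 RefSeq promoter windows of the same length, 7.15% hold CACGTG, 37.4% hold CCAAT and 35.7% hold GGGCGG, and these matches are a description of the letters only. Promoter windows were read for 6 of the 10 genes.

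Of the enzymes that form triglyceride, Dgat2 (chromosome 7, 99153663 to 99182713, minus strand) measured 4.41, 3.03, 2.79 and 2.52 CPM in transplanted replicates and 0.996, 0.420, 0.523 and 1.46 CPM in resident replicates. The groups did not overlap, at 52 to 97 counts per transplanted library and 9 to 32 per resident library. The log2 fold change was 1.90 ± 0.37 (SE; edgeR adjusted p = 0.00706), and 1.97 and 2.28 without resident replicates 1 and 4. Dgat1 (chromosome 15, 76502012 to 76512021, minus strand), which works in the endoplasmic reticulum on fatty acids from several sources, measured 27.9, 27.3, 25.3 and 30.6 CPM in transplanted replicates and 23.7, 26.3, 27.4 and 25.6 CPM in resident replicates. These ranges overlapped, with a log2 fold change of 0.12 ± 0.08 (SE; edgeR adjusted p = 0.386).

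Of the lipases, Mgll (chromosome 6, 88724412 to 88828360, plus strand), which also breaks down a major endocannabinoid of the brain, measured 51.4, 53.1, 31.5 and 42.0 CPM in transplanted replicates and 85.8, 95.3, 87.1 and 83.4 CPM in resident replicates. All 4 transplanted libraries lay below the resident ones, with replicate 3 lowest. The log2 fold change was -0.98 ± 0.14 (SE; edgeR adjusted p = 0.00145), and -1.0 and -1.01 without resident replicates 1 and 4. The Mgll locus overlaps the antisense gene Gm26588 at its 5' end, and Gm43937 within it also lies on the opposite strand. Gm44005, Gm43999 and Gm44001 lie within it on the same strand. Without strand, reads from the stretches shared with opposite-strand genes cannot be told apart. The part of all these genes in the Mgll counts was not tested. Pnpla2 (chromosome 7, 141455188 to 141460743, plus strand) measured 117, 109, 96.7 and 89.7 CPM in transplanted replicates and 142, 113, 114 and 137 CPM in resident replicates. These ranges overlapped, and the log2 fold change of -0.29 ± 0.11 (SE) did not pass the test (edgeR adjusted p = 0.106). Lipa (chromosome 19, 34492316 to 34527474, minus strand) measured 188, 213, 181 and 214 CPM in transplanted replicates and 154, 170, 163 and 172 CPM in resident replicates. Its groups did not overlap, but the difference was small, with a log2 fold change of 0.28 ± 0.08 (SE; edgeR adjusted p = 0.0389). The call on Lipa was lost, with adjusted p-values of 0.0761 to 0.119, when any single resident library was left out, and at 0.0921 and 0.0942 without transplanted replicates 2 and 4. Without resident replicate 1 or without resident replicate 4, the members called higher therefore numbered 3 in place of 4.

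Cell type markers moved between these groups as well. Siglech and Sall1 of the 8 microglia markers were lower in transplanted cells, at 2061 and 619 CPM, against 2727 and 820 CPM in resident cells. All 6 border-associated macrophage markers were lower in transplanted than in resident cells, the same direction as Mgll and opposite to Plin3, Dgat2, Fabp5 and Lipa. The 7 endothelial markers summed to 13.5 to 18.3 CPM in transplanted and 38.0 to 56.2 CPM in resident libraries, with Esam at 0 in the resident group. Most of this sum was Pecam1, at 10.5 CPM in transplanted and 47.3 CPM in resident cells. Of the 3 that could be tested, Pecam1 was lower and 2 were higher, Cdh5 (3.1 and 1.48 CPM) and Flt1 (1.77 and 0.489 CPM). Cldn5, Ly6c1, Slco1a4 and Esam had group means of at most 0.0586 CPM in both groups. The 6 monocyte markers summed to 2.59 to 3.65 CPM in transplanted and 6.93 to 11.4 CPM in resident libraries, and of the 2 tested 1 was higher and 1 lower. The part of these cells in the results above was not tested.

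**Figure D2:**
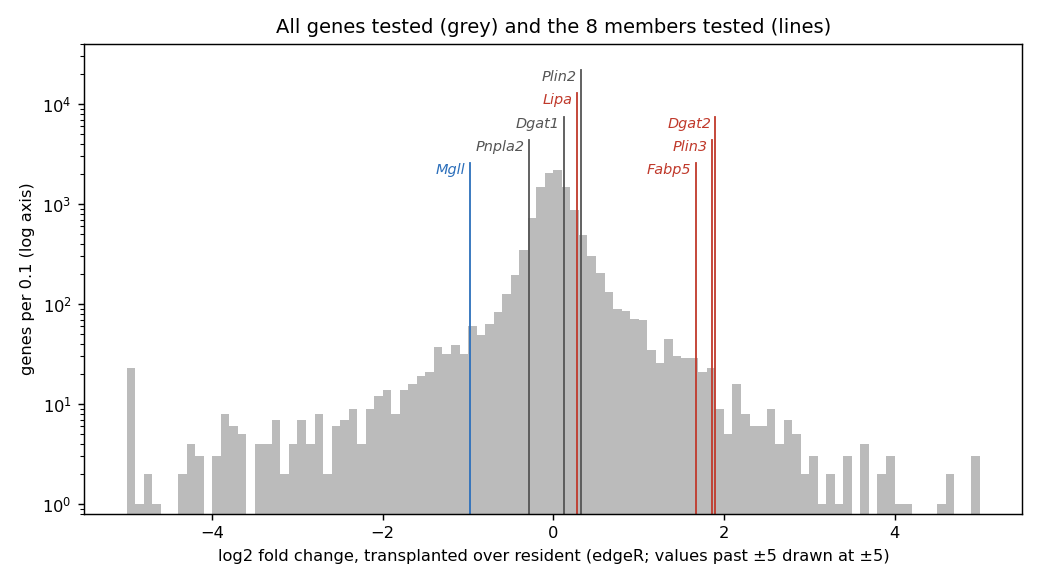
Number of genes (log axis) at each log2 fold change of transplanted over resident cells for all 11929 genes tested (grey), with lines at the 8 members tested (red called higher, blue called lower, dark grey not called). Dgat2 (1.90), Plin3 (1.86) and Fabp5 (1.67) lie in the right tail, Mgll (-0.98) in the left tail, and Lipa (0.28), Plin2 (0.32), Dgat1 (0.12) and Pnpla2 (-0.29) lie near the centre.

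On counts, all 10 genes were called between cultured and resident cells. Fabp5, Plin2, Plin3, Dgat1 and Lipa changed by larger factors than between transplanted and resident cells. Dgat2 changed by a smaller factor (2.70-fold against 3.73-fold), and Mgll by a similar one (2.07-fold against 1.97-fold). Fabp5 was 815-fold higher in cultured cells, Plin2 29.0-fold, Fabp3 26.8-fold, Plin3 16.2-fold, Dgat1 4.91-fold, Lipa 3.19-fold and Dgat2 2.70-fold higher, and Fabp4 was read only in cultured libraries. With each library's trend of counts on gene length removed, the log2 fold change of Fabp5 was 8.36 in place of 9.67 and that of Fabp3 2.93 in place of 4.74, both still called. Pnpla2 was 1.45-fold higher on the count scale and lower on the length-corrected TPM scale, and Mgll was 2.07-fold lower. On the count scale 9 members were higher and 1 was lower, in a comparison in which 75.1% of 12406 genes were called, 37.9% higher and 37.2% lower. The members had a median log2 fold change of 3.16, against -0.02 for all genes tested. Ranges were apart for 8 members above and 1 below, and 75.7% of all genes tested had ranges that were apart (36.5% above and 39.3% below). Cultured cells had 3 of the 6 markers of border-associated macrophages higher and 2 lower, and the 6 monocyte markers summed to 176 to 255 CPM in cultured and 6.93 to 11.4 CPM in resident libraries. The part of such cells in the members' differences was not tested.

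**Figure D3:**
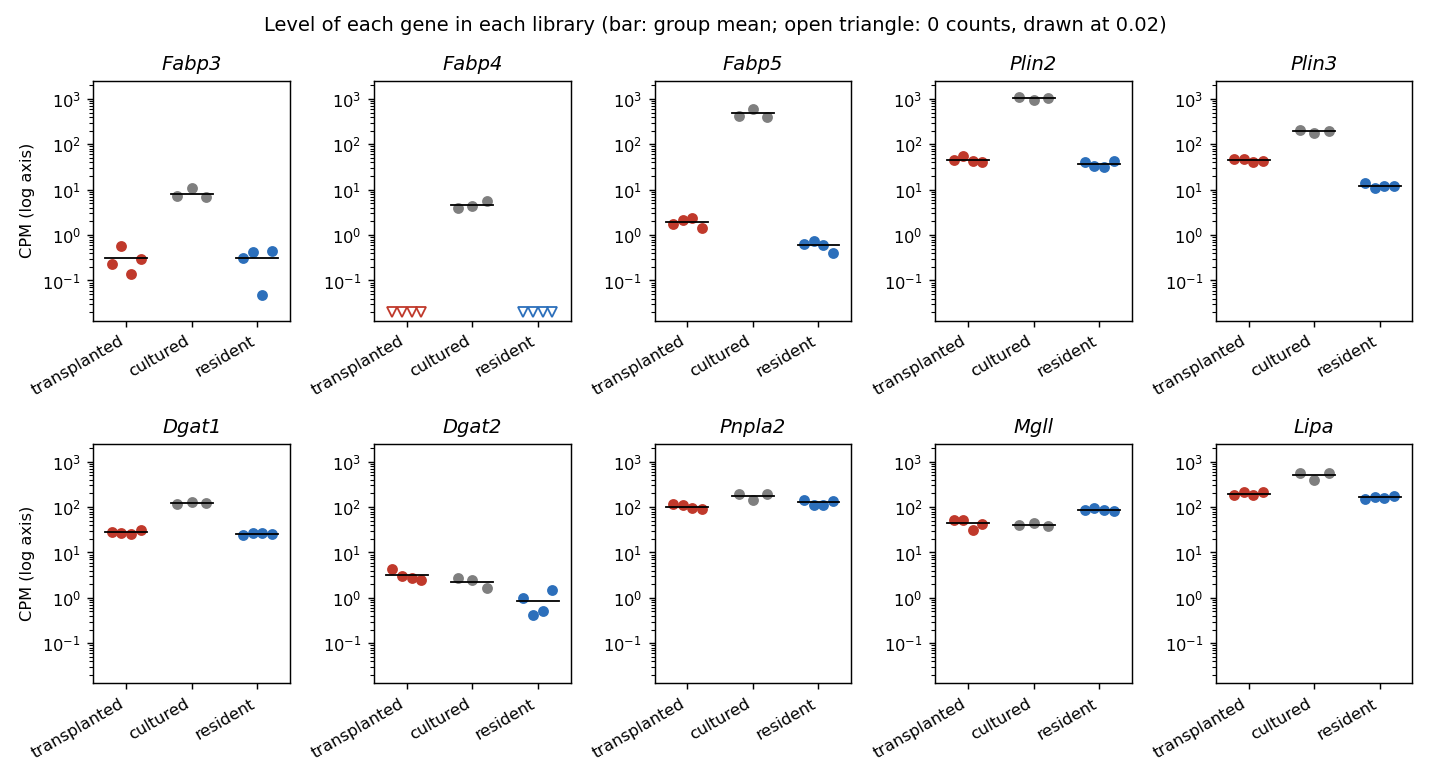
Level of each of the 10 genes in CPM in every library (points; log axis; bars are group means, and open triangles drawn at 0.02 stand for 0 counts) for transplanted, cultured and resident cells. Fabp5, Plin2, Plin3, Fabp3, Fabp4, Dgat1 and Lipa are highest in the 3 cultured libraries, and Mgll is highest in the 4 resident libraries.

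Fabp5 measured 432, 613 and 403 CPM in cultured replicates 1 to 3, against at most 0.747 CPM in resident libraries, a log2 fold change of 9.67 ± 0.25 (SE; edgeR adjusted p = 6.39e-09). Fabp3 measured 7.21, 10.8 and 6.78 CPM in cultured replicates, against at most 0.457 CPM in resident libraries, a log2 fold change of 4.74 ± 0.46 (SE; edgeR adjusted p = 1.26e-05). For both genes no cultured library came near any resident library. Fabp4 measured 4.01, 4.45 and 5.70 CPM in cultured replicates, 293 counts in all, and 0 in resident libraries. Set against a floor of 3 counts over the 4 resident libraries (0.0347 CPM), Fabp4 was at least 136-fold higher in cultured cells (edgeR adjusted p = 2.06e-05). Of 5 adipocyte markers listed, Plin1 and Cidec were read, and they summed to 1.0 to 2.03 CPM in cultured and 0 to 0.0475 CPM in resident libraries. The 1 of them tested, Plin1, was higher in cultured cells, and the part of adipocytes in the Fabp4 level was not tested.

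The perilipins were both higher. Plin2 measured 1109, 961 and 1080 CPM in cultured replicates, against 31.4 to 42.1 CPM in resident libraries, a log2 fold change of 4.86 ± 0.15 (SE; edgeR adjusted p = 1.48e-08). Plin3 measured 208, 176 and 196 CPM in cultured replicates, against 10.8 to 13.9 CPM in resident libraries, a log2 fold change of 4.02 ± 0.12 (SE; edgeR adjusted p = 1.43e-08). Dgat1 measured 118, 129 and 122 CPM in cultured replicates, against 23.7 to 27.4 CPM in resident libraries, a log2 fold change of 2.30 ± 0.10 (SE; edgeR adjusted p = 7.48e-08). In these genes the cultured libraries were close to each other and well clear of the resident ones. Dgat2 stayed low in cultured cells, at 2.72, 2.42 and 1.61 CPM, against 0.420 to 1.46 CPM in resident libraries. Its log2 fold change was 1.43 ± 0.46 (SE; edgeR adjusted p = 0.0178), and the call was lost without resident replicate 3 (adjusted p = 0.0541) and without cultured replicate 1 (adjusted p = 0.0612).

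The lipases moved in different directions. Lipa measured 568, 401 and 566 CPM in cultured replicates, against 154 to 172 CPM in resident libraries, a log2 fold change of 1.67 ± 0.14 (SE; edgeR adjusted p = 4.67e-06). Mgll measured 41.0, 45.7 and 37.4 CPM in cultured replicates, against 83.4 to 95.3 CPM in resident libraries, a log2 fold change of -1.05 ± 0.11 (SE; edgeR adjusted p = 2.15e-05). Every cultured library was below every resident library for Mgll. Pnpla2 measured 197, 140 and 199 CPM in cultured replicates and 113 to 142 CPM in resident libraries, so that cultured replicate 2 fell inside the resident range. Its log2 fold change was 0.53 ± 0.15 (SE; edgeR adjusted p = 0.0105) on counts, but it was -0.58 (limma adjusted p = 0.0116) on log2(TPM + 0.1), so no direction can be given for Pnpla2 free of the scaling. The Pnpla2 call on counts was also lost without cultured replicate 1 (adjusted p = 0.0533) or replicate 3 (adjusted p = 0.0540).

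A TPM value, the length-corrected unit the authors deposited, divides counts by transcript length and then by the library's own total. On that scale the median of all genes lay at -1.08 (log2) in cultured relative to resident cells. On log2(TPM + 0.1), 20.5% of the genes called were higher in cultured cells, against 50.5% on counts with TMM scaling. Relative to that median, Pnpla2 was 0.51 higher and Dgat2 1.50 higher on the TPM scale, while the unshifted log2 fold change of Dgat2 was 0.42 (limma adjusted p = 0.344). The unshifted log2 fold changes on that scale were 8.49 for Fabp5, 3.79 for Plin2, 3.77 for Fabp3, 2.91 for Plin3, 1.23 for Dgat1, 0.55 for Lipa and -2.14 for Mgll. The directions of Fabp3, Fabp4, Fabp5, Plin2, Plin3, Dgat1, Mgll and Lipa were the same on both scales.

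Transplanted cells were below cultured cells in 8 of the 10 genes on counts. Fabp5 was 254-fold lower in transplanted cells, Fabp3 26.7-fold, Plin2 23.0-fold, Dgat1 4.47-fold, Plin3 4.40-fold and Lipa 2.59-fold lower, and Fabp4, with 0 counts in transplanted libraries, was at least 134-fold lower. Pnpla2 was 1.75-fold lower on counts but at a log2 fold change of 0.31 on log2(TPM + 0.1), where it did not pass the test (limma adjusted p = 0.122). On counts 8 members were lower and 2 were not called, and 0 were higher by edgeR or DESeq2, or by edgeR at an unadjusted p under 0.05, where 72.4% of 12284 genes were called, 36.9% higher and 35.5% lower. The members had a median log2 fold change of -2.15, against 0.05 for all genes tested. Ranges were apart for 8 members, all below, and for 73.3% of all genes tested (38.6% above and 34.7% below).

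The log2 fold changes of transplanted over cultured cells were -7.99 ± 0.24 for Fabp5 and -4.74 ± 0.43 for Fabp3 (SE; edgeR adjusted p = 5.6e-09 and 5.7e-06). Plin2 was at -4.52 ± 0.14 and Plin3 at -2.14 ± 0.12 (SE; edgeR adjusted p = 7.72e-09 and 2.19e-07). Plin3 in transplanted cells was thus between the other groups, above resident cells and below cultured cells in every library. Dgat1 was at -2.16 ± 0.12 and Lipa at -1.37 ± 0.15 (SE; edgeR adjusted p = 1.86e-07 and 1.83e-05), and the call on Lipa was lost on log2(TPM + 0.1), at -0.26 (limma adjusted p = 0.164). With the length trend removed, Fabp5 was at -6.53 and Fabp3 at -2.72, both still called. Dgat2, at 2.52 to 4.41 CPM in transplanted and 1.61 to 2.72 CPM in cultured libraries, did not pass the test on counts, with a log2 fold change of 0.49 ± 0.33 (SE; edgeR adjusted p = 0.203). Mgll, at 31.5 to 53.1 CPM in transplanted and 37.4 to 45.7 CPM in cultured libraries, was at 0.09 ± 0.19 (SE; edgeR adjusted p = 0.680). On log2(TPM + 0.1), where the median of all genes lay at 1.12 and 80.6% of calls were higher against 51.0% on counts, Dgat2 and Mgll were called higher in transplanted cells, at 1.51 and 1.14. Relative to that median they were at 0.40 and 0.03. Markers of other cells and of stress moved with these differences. In transplanted cells 4 of 4 border-associated macrophage markers tested and 4 of 4 monocyte markers tested were lower, and of 7 immediate early genes 1 was higher and 6 were lower, with sums of 285 to 434 CPM in transplanted and 2611 to 2845 CPM in cultured libraries. Their part in the members' differences was not tested. The comparison with cultured cells shares its transplanted libraries with the first comparison and its cultured libraries with the second, so the 3 sets of values are not independent of each other.

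**Figure D4:**
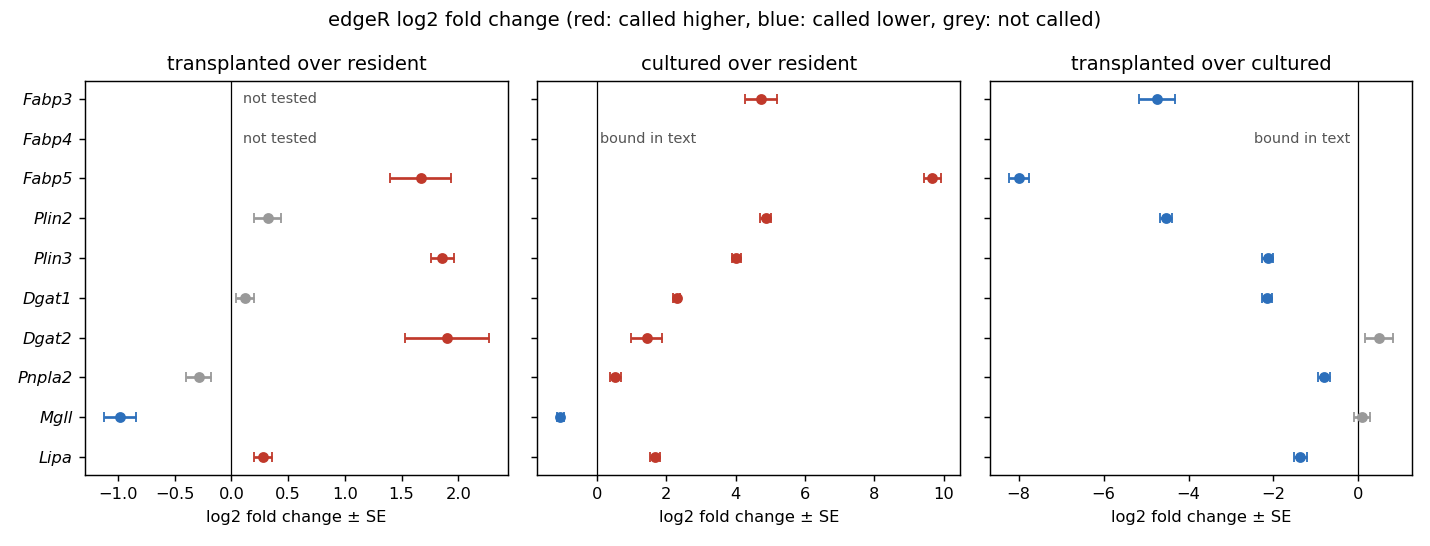
Log2 fold change ± SE of the members in the 3 comparisons (edgeR on counts, with red called higher, blue called lower and grey not called). The horizontal scales differ between panels. Fabp4 is not drawn in any panel, and Fabp3 is not drawn for transplanted over resident cells, where it was not tested. Among the genes drawn, Fabp5 spans the widest range, at 9.67 in cultured over resident cells and -7.99 in transplanted over cultured cells. Mgll is lower in both comparisons with resident cells. Pnpla2 in the comparisons with cultured cells changes sign on the TPM scale.

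Relations between members of the same role were compared within each library, where the scaling between libraries cancels, apart from the 0.1 TPM added to each value. The ratio of Plin2 to Plin3 in TPM was 1.14, 1.36, 1.23 and 1.11 in transplanted replicates, 6.33, 6.50 and 6.56 in cultured replicates, and 3.42, 3.63, 3.02 and 4.01 in resident replicates. The ranges of the 3 groups were apart, with transplanted cells lowest and cultured cells highest. On the log2 scale the ratio averaged 0.27 ± 0.13 in transplanted and 1.81 ± 0.17 in resident cells (SD, n = 4 each), a difference of -1.54 (exact two-sided permutation test, p = 0.0286, adjusted over 9 tests 0.0735). The ratio of Dgat1 to Dgat2 was 8.22, 11.7, 11.8 and 15.5 in transplanted replicates, 55.3, 67.7 and 92.5 in cultured replicates, and 29.1, 69.3, 59.1 and 21.6 in resident replicates. Resident Dgat2 lay at 0.44 to 1.49 TPM on 9 to 32 counts per library, so this ratio also rests on few counts and the added 0.1 TPM lowers it. Transplanted cells were below resident cells in every library, with a log2 difference of -1.80 (exact two-sided permutation test, p = 0.0286, adjusted 0.0735), while cultured and resident cells overlapped (difference 0.81, exact p = 0.286). The ratio of Fabp5 to Fabp3 was 2.23 to 9.25 in transplanted, 35.7 to 37.4 in cultured and 0.579 to 4.60 in resident libraries. Transplanted and resident ranges overlapped for this ratio (log2 difference 1.51, exact p = 0.114), which rests on few counts in both groups. No ratio could pass the adjusted threshold, whatever the data, because the smallest possible exact p-values are too large once adjusted over 9 tests. The adjusted values therefore cannot decide whether a ratio differed between groups. The smallest p that an exact test can give is 0.0286 with 4 against 4 libraries and 0.0571 with 3 against 4, and all of the comparisons of cultured cells whose ranges were apart gave 0.0571.

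**Figure D5:**
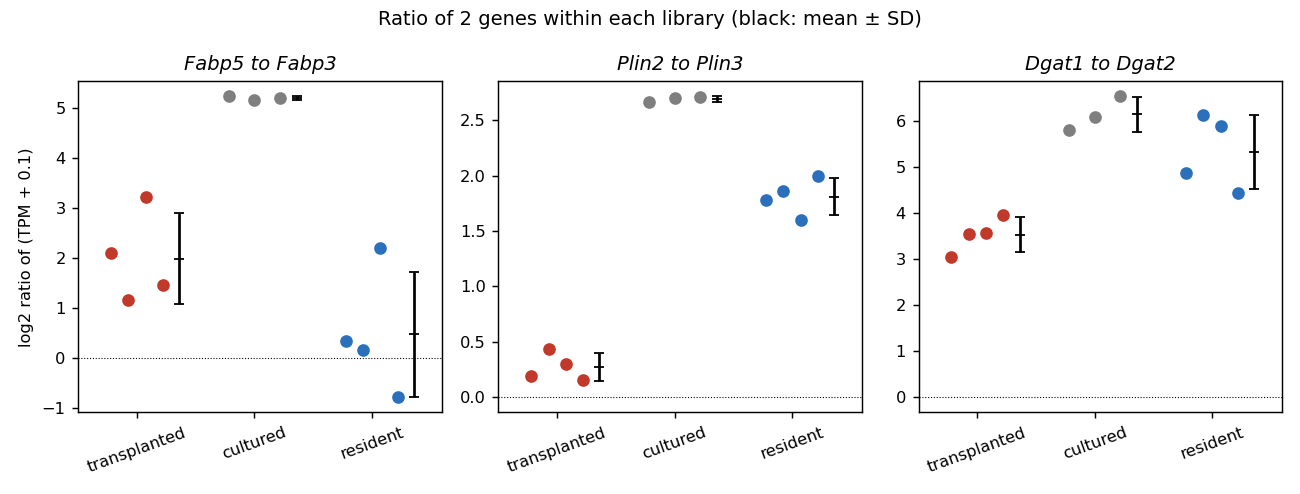
Log2 ratio of TPM within each library for Plin2 to Plin3, Dgat1 to Dgat2 and Fabp5 to Fabp3 (points are libraries, bars are means ± SD) in transplanted, cultured and resident cells. Plin2 to Plin3 lies at 0.16 to 0.44 in transplanted, 2.66 to 2.71 in cultured and 1.60 to 2.00 in resident libraries.

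The order of the genes' own levels, in TPM because genes differ in length, also differed by group. In transplanted cells it ran Lipa (156 ± 10.8), Pnpla2 (92.1 ± 10.5), Plin2 (59.9 ± 6.56), Plin3 (49.4 ± 3.11), Dgat1 (39.3 ± 2.83), Mgll (27.0 ± 5.83), Fabp5 (5.75 ± 1.24), Dgat2 (3.40 ± 0.903) and Fabp3 (1.52 ± 0.846 TPM; SD, n = 4), with Fabp4 at 0. Only the neighbours Fabp5 and Dgat2 had overlapping ranges there. In cultured cells Fabp5 (663 ± 116) and Plin2 (654 ± 74.6 TPM; SD, n = 3) led with overlapping ranges. They were followed by Lipa (190 ± 42.9), Plin3 (101 ± 12), Dgat1 (84.0 ± 3.16), Pnpla2 (75.3 ± 17.2), Fabp3 (18.1 ± 3.64), Mgll (12 ± 0.811), Fabp4 (10.5 ± 2.56) and Dgat2 (1.12 ± 0.262 TPM). Dgat1 overlapped Pnpla2, and Mgll overlapped Fabp4. In resident cells the order was Lipa (127 ± 5.04), Pnpla2 (111 ± 13), Mgll (53.0 ± 3.70), Plin2 (47.2 ± 6.42), Dgat1 (35.8 ± 2.39), Plin3 (13.4 ± 1.50), Fabp5 (1.77 ± 0.424), Fabp3 (1.47 ± 0.813) and Dgat2 (0.883 ± 0.484 TPM; SD, n = 4), with Fabp4 at 0. Lipa overlapped Pnpla2, Mgll overlapped Plin2, and the ranges of Fabp5, Fabp3 and Dgat2 ran into each other. Mgll was thus the third gene of the order in resident cells, the sixth in transplanted cells and the eighth in cultured cells.

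Genes of the surrounding pathways, in 9 lists of 117 genes for fatty acid uptake, activation, synthesis, oxidation, glycerolipid synthesis, droplets, lipolysis, lysosomal lipids and transcription factors, showed few differences between transplanted and resident cells. Of 89 tested, 8 were higher and 2 were lower in transplanted cells. That is 11.2% (8.99% higher and 2.25% lower), against 13% of all genes (7.17% higher and 5.86% lower). The counts were 6 higher and 2 lower without resident replicate 1, and 6 higher and 1 lower without resident replicate 4. Nceh1, a neutral cholesterol ester hydrolase of macrophages, measured 34.7 ± 3.69 CPM in transplanted and 17.0 ± 2.11 CPM in resident cells (SD, n = 4 each; log2 fold change 1.04, edgeR adjusted p = 0.000191). Soat1, which esterifies cholesterol for droplet storage, measured 113 ± 5.78 CPM in transplanted and 81.0 ± 4.14 CPM in resident cells (log2 fold change 0.49, adjusted p = 0.000607). The fatty acid transport protein genes Slc27a3 and Slc27a1 were higher by 1.12 and 0.53 on the log2 scale (adjusted p = 0.0206 and 0.00102). Acaca, which makes malonyl-CoA for fatty acid synthesis, was higher by 0.67, and the transcriptional coactivator Ppargc1b by 0.70 (adjusted p = 0.0151 and 0.00507). Ddhd2, a neutral lipid hydrolase best known in brain, and the lipogenic factor Srebf1 were each higher by 0.27 (adjusted p = 0.00989 and 0.0385). The 2 genes lower in transplanted cells were Abhd6, which like Mgll hydrolyses monoacylglycerol (log2 fold change -0.48, adjusted p = 0.00403), and the mitochondrial dehydrogenase gene Acadl (log2 fold change -0.28, adjusted p = 0.0219). The call on Slc27a3 was lost without resident replicate 1 (adjusted p = 0.053), and those on Acaca and Acadl without resident replicate 4 (0.0547 and 0.0608). The call on Srebf1 was lost without either (0.0861 and 0.13), and on log2(TPM + 0.1) those on Acaca and Srebf1 were lost (limma adjusted p = 0.0562 and 0.0614).

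Between cultured and resident cells, 56 of 96 pathway genes tested were higher and 18 lower on counts, and 27 were higher and 45 lower of 92 on log2(TPM + 0.1). That is 77.1% called on counts, 58.3% higher and 18.8% lower, against 75.1% of all genes, 37.9% higher and 37.2% lower. On log2(TPM + 0.1), 20.5% of the calls over all genes were higher. On TMM-scaled log2(TPM + 0.1), a setting added after the data were seen, 54 pathway genes were higher and 19 lower of 92. The genes named next had the same direction on both scales, except Plin1, which did not enter the fit on log2(TPM + 0.1). Lpl, the lipoprotein lipase, measured 1219 ± 45.1 CPM in cultured cells (SD, n = 3) and 13.3 ± 3.90 CPM in resident cells (SD, n = 4; log2 fold change 6.56, edgeR adjusted p = 2.91e-08). The fatty acid receptor gene Cd36 was higher by 6.32, and Hilpda, a droplet protein that inhibits the Pnpla2 lipase, by 6.11 (adjusted p = 1.35e-07 and 6.59e-09). Gpat3 was higher by 9.25 (adjusted p = 1.31e-07) while Gpam, which catalyses the same first step of glycerolipid synthesis in mitochondria, was lower by a log2 fold change of -2.03 (adjusted p = 2.75e-05). Pparg, the fatty acid-activated receptor whose known targets in adipocytes and macrophages include Fabp4 and Plin2, measured 43.8 ± 5.03 CPM in cultured cells and had 1 count over the 4 resident libraries, a ratio of 3786 with a 95% counting interval of 679 to 149524. Fabp7, the brain form of the binding proteins, measured 12.1 ± 3.31 CPM in cultured cells and had 2 counts in resident libraries, a ratio of 521 (144 to 4305). Of 7 astrocyte markers, Fabp7 among them, 5 were tested, with 3 higher and 2 lower in cultured cells. Aldoc measured 47.1 CPM in cultured and 1.44 CPM in resident cells, Aldh1l1 18.6 and 0.817 CPM, Slc1a3 0.336 and 241 CPM, Gfap 0.418 and 0.334 CPM, and Aqp4 0.0325 and 0.639 CPM in the same order, and the list summed to 55.7 to 92.6 CPM in cultured and 209 to 265 CPM in resident libraries. The part of astrocytes in the Fabp7 level was not tested. Plin1, at 0.951 ± 0.208 CPM in cultured cells and 0 in resident libraries, was at least 27.4-fold higher. Pnpla3, a relative of Pnpla2, went the other way, with 3 counts over the 3 cultured libraries and 2.23 ± 0.618 CPM in resident cells, where it was 46.2 times higher (95% counting interval 15.8 to 224; edgeR adjusted p = 0.000174). The acyl-CoA binding protein gene Dbi was higher in cultured cells by 4.16, Nceh1 by 3.77, the lysosomal sterol carrier gene Npc2 by 1.95, the oxidation genes Acaa2 and Etfb by 3.02 and 2.57, Acly, which makes cytosolic acetyl-CoA, by 3.28, Acaca by 2.54, and the transcription factor gene Cebpb by 3.88 (edgeR adjusted p of at most 0.000249). Among other lipolysis genes 3 of 12 were higher and 7 lower on counts, with a median log2 fold change of -1.07. Of 19 fatty acid oxidation genes 16 were higher and 0 lower on counts by edgeR and by DESeq2, and likewise on TMM-scaled log2(TPM + 0.1). On log2(TPM + 0.1) without that scaling 6 were higher and 4 lower. There, of 12150 genes tested, 2111 were higher and 8176 lower.

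Transplanted against cultured cells gave 20 pathway genes higher and 51 lower of 94 tested on counts. That is 75.5% called, 21.3% higher and 54.3% lower, against 72.4% of all genes, 36.9% higher and 35.5% lower. On log2(TPM + 0.1), where 80.6% of the calls over all genes were higher, 46 were higher and 26 lower of 92. On TMM-scaled log2(TPM + 0.1), 21 were higher and 52 lower of 93. Lpl (log2 fold change -6.61), Cd36 (-7.18), Hilpda (-5.80), Gpat3 (-9.04), Nceh1 (-2.72) and Pparg (-8.12) were lower in transplanted cells, with edgeR adjusted p-values of 7.8e-08, 9.21e-08, 1.82e-09, 4.16e-08, 5.87e-08 and 1.48e-08. Pparg had 13 counts over the 4 transplanted libraries. Lpin2, a phosphatidate phosphatase of triglyceride synthesis, and Pla2g15, a lysosomal phospholipase, were higher in transplanted cells by 2.05 and 1.84 (adjusted p = 1.99e-07 and 9.92e-07). Pnpla3, at 1.81 ± 0.233 CPM in transplanted cells (SD, n = 4) and 3 counts in cultured libraries, was 37.5 times higher (95% counting interval 12.8 to 182; edgeR adjusted p = 0.000187). Dbi (-4.53), Acaa2 (-3.00), Etfb (-2.73), Acly (-3.30), the desaturase gene Scd2 (-2.11) and Cebpb (-3.56) were lower in transplanted cells (edgeR adjusted p of at most 0.000948). Fabp7, with 2 counts over the transplanted libraries, was 512 times higher in cultured cells (142 to 4231), and Plin1 was at least 26.9-fold higher there.

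The genes whose log2 CPM followed each member most closely over the 11 libraries were found by Pearson correlation among genes tested in all 3 comparisons. Since the cultured libraries differ from the sorted ones in most genes, high values are common, and the correlations are a description only. Plin3 was most like Cd44 (0.996), Csf2ra (0.992) and Nedd9 (0.992), and 160 genes reached a correlation above 0.95 with it, against 1550 with Plin2. Mgll was most like Dlc1 (0.978), Gab1 (0.974) and H2-Aa (0.940), with 2 genes above 0.95. Dgat2 was most like Cxcl16 (0.913), Wwtr1 (0.911) and H13 (0.893), with none above 0.95. Lipa was most like the lysosomal genes Glb1 (0.996) and Gm2a (0.993), with Fam107b (0.993) between them. The closest gene was Emp3 (0.997) for Fabp5, Gyg (0.998) for Plin2, Capg (0.998) for Dgat1, Add3 (0.965) for Pnpla2, Atp6v1d (0.982) for Fabp3 and Pgam1 (0.998) for Fabp4.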

How the data were processed

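Libraries made by a Smart-Seq protocol from TRIzol-extracted total RNA were sequenced, per the labels' protocols. HISAT, Bowtie2 and GRCm38.p6 are named in the submitters' processing notes, without versions. The authors deposited expected counts, TPM and FPKM per gene, and the 11 FPKM columns were not used. The sources used here give neither strand nor annotation. Entrez identifiers were matched to RefSeq symbols (16845 of 16894 genes), and the members' coordinates and the promoter windows come from RefSeq as well. Strands and overlapping genes come from the GENCODE annotation of GRCm38.

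Deposited expected counts were rounded and tested with edgeR 4.0.16 (quasi-likelihood, TMM scaling, filterByExpr, each pair of groups fitted alone, Benjamini-Hochberg adjustment over all genes tested, threshold 0.05; R 4.3.3). CPM values use TMM factors over all 11 libraries. SE is the log2 fold change divided by the square root of F. Alternatives were DESeq2 1.42.0, RLE scaling, no filter, all groups in 1 fit, the replicate number as a block, removal of a trend with gene length, limma 3.58.1 on log2(TPM + 0.1) and log2(TPM + 1) after a filter at 0.5 TPM, and each library left out. TMM-scaled TPM and the list counts by scaling were added after the data were seen. Ratios within libraries used TPM + 0.1 and exact permutation tests (scipy 1.17.1). Named pathway genes are the 2 with the largest change among those called per list and comparison. The edgeR step was also run on simulated data in which few genes were changed. That setting does not cover the scaling in comparisons with cultured cells, where most genes were called. The members and lists were chosen with earlier results of these data known. Intervals and floors cover counting error only.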

Additional observations from a re-analysis of the deposited data

How the results depend on the processing

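Of 484 fold changes of members recomputed under another setting, 451 kept their direction and their side of the threshold, 6 passed it newly, 19 no longer passed it and 8 changed sign. Calls were lost or signs changed on TPM, without a filter, with all groups in 1 fit, with the length trend removed and when single libraries were left out. On log2(TPM + 0.1) with and without the filter, and on log2(TPM + 1), 2 members in place of 1 were lower in cultured than in resident cells, the added gene being Pnpla2 (-0.58, -0.58 and -0.57), and 2 in place of 0 were higher in transplanted than in cultured cells, Dgat2 (1.51, 1.51 and 1.04) and Mgll (1.14, 1.14 and 1.09). Pnpla2 changed sign there in transplanted over cultured cells as well (0.31 in all 3). On TPM rescaled by TMM, a setting chosen after seeing the data, Pnpla2 in cultured over resident cells was at 0.37 (adjusted p = 0.0612). Mgll in transplanted over cultured cells, not called in either case, was at -0.08 with the length trend removed and at -0.03 without transplanted replicate 2. Removing the length trend moved Fabp5 and Fabp3 in cultured over resident cells to 8.36 and 2.93, with both still called. Leaving out each library in turn gave 3 to 4 members higher and 1 lower in transplanted over resident cells, 7 to 9 higher and 1 lower in cultured over resident cells, and 0 higher and 8 lower in transplanted over cultured cells. Lipa in transplanted over resident cells also missed the threshold with no filter (adjusted p = 0.057) and with all groups in 1 fit (adjusted p = 0.23), and Lipa in transplanted over cultured cells on log2(TPM + 0.1) (-0.26, adjusted p = 0.164). The cause of these changes was not tested. With all groups in 1 fit, 507 genes were higher and 405 lower in transplanted over resident cells, against 855 and 699, and 519 and 511 were higher without resident replicates 2 and 3. Libraries of different groups that share a replicate number showed little shared deviation (correlations of -0.07 to 0.053). With 3 or 4 libraries per group this cannot exclude pairing, and the main fits did not pair libraries. In both comparisons with cultured cells, replicate 3 correlated best with the library of the same number (0.053 and 0.027). With the replicate block, 4 members were higher and 1 lower in transplanted over resident cells, 9 and 1 in cultured over resident cells, and 0 and 8 in transplanted over cultured cells, and the calls over all genes in transplanted over resident cells were 707 higher and 592 lower. Depth limits Fabp3, Fabp4, Fabp5 and Dgat2 in the sorted cells, where values rest on 0 to 97 counts per library.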
